A study of Mus musculus with 18 samples.

Results

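The IL-6 family was followed in sorted cardiac fibroblasts of the neonatal mouse heart through 10 genes chosen by symbol from the 55453 gene symbols of the deposited count table. These were the ligands Il6, Lif and Il11, the receptor chains Il6st, Il6ra, Il11ra1, Lifr and Osmr, the transcription factor Stat3 and the feedback inhibitor Socs3. All 10 had rows in the table and all 10 passed the expression filter that left 16170 genes for testing.

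IL-6 and IL-11 bind a private receptor chain and then recruit gp130, the shared signaling subunit encoded by Il6st. LIF and oncostatin M signal through gp130 paired with LIFR or OSMR. The Janus kinases attached to these chains phosphorylate STAT3, which enters the nucleus and switches on target genes, among them Socs3, whose product binds gp130 and shuts the signal down. In the heart, fibroblasts are known both to secrete and to respond to these cytokines after injury, and IL-6, IL-11 and oncostatin M are all linked to scar formation.

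Bulk RNA sequencing covered 18 libraries of GFP+ cells from C57BL/6J pups, 3 in each of 6 groups. Every pup carried Tcf21-MerCreMer, a tamoxifen-inducible Cre driven from 1 Tcf21 allele, and the Rosa-mTmG reporter, and all received tamoxifen at postnatal day 1 (P1), including the controls. The P2 baseline and P10 baseline groups were not operated on. The P2 sham, P2 resected, P10 sham and P10 resected groups had sham surgery or apical resection, in which the tip of the ventricle is cut away, at P2 or P10 and were collected 3 days later, at P5 or P13. Together the 3 groups operated on or collected at P2 form the P2 window, in which the heart regenerates, and the other 3 form the P10 window, in which it scars. The labels do not say which sex the pups were or how many were pooled for 1 library, and the replicate numbers carry no stated litter or day, so p-values measure the spread between these libraries. The cells came from the whole apical part of the ventricles, so fibroblasts distant from the wound were included, and hearts of the P10 window were digested for longer than those of the P2 window. Age therefore cannot be told apart from digestion time.

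Library totals ran from 10462737 to 22980554 counts. Tcf21, the gene that drives the label, was found at 203 to 447 CPM (counts scaled by the effective size of each library) and Pdgfra, a fibroblast surface receptor, at 256 to 878 CPM, and none of the 10 fibroblast markers was without counts in any library. The 10 fibroblast markers summed to 48673 to 95652 CPM in the P2 window and to 83389 to 118730 CPM in the P10 window. Macrophage markers were present at much lower summed levels, from 5.94 to 474 CPM in the P2 window and from 18.7 to 1155 CPM in the P10 window. Adgre1, Csf1r, Fcgr1, Mrc1 and Ptprc had no counts in 3, 2, 5, 4 and 4 of the 18 libraries. C1qa, C1qb, C1qc and Tyrobp had none in 1 library each, and Cd68, Lyz2 and Fcer1g had counts in every library. The neutrophil receptor gene Cxcr2 had no count in any library and S100a8 and S100a9 had none in 7 of the 18. The 6 neutrophil markers together reached at most 13.5 CPM. Cardiomyocyte markers summed to 309 to 1452 CPM in the P2 window and to 156 to 809 CPM in the P10 window. In the same order, mural markers ran from 308 to 805 and from 504 to 1346 CPM. Endothelial markers ran from 180 to 510 and from 254 to 495 CPM, and epicardial markers from 798 to 1177 and from 915 to 2096 CPM. In bulk RNA, fewer cells of a type and less RNA per cell cannot be told apart.

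Levels per exon length placed the members on 1 scale. The divisor was the merged length of all annotated exons, from 2081 bases for Il11 to 12113 for Osmr. Which transcripts the cells made was not determined. In CPM per kb of merged exon, Socs3 had the highest median over the 18 libraries, 156, followed by Il6st at 25.2, Stat3 at 23.2 and Il11ra1 at 22.4. The ranges of the last 3 overlapped nearly throughout, from 17.7 to 46.4 for Il6st, from 11.4 to 42.9 for Stat3 and from 12.0 to 43.6 for Il11ra1, so their order does not exceed their spread. Osmr stood at a median of 3.56, Il6 at 3.05, Lifr at 2.31, Lif at 1.40, Il6ra at 0.861 and Il11 at 0.188 CPM per kb, and each of these overlapped the next. The shared chain gp130 was thus measured at a higher level per length than Il6ra, Lifr or Osmr in every group mean, whereas the specific alpha chain of IL-11, Il11ra1, was close to it.

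**Figure D1:**
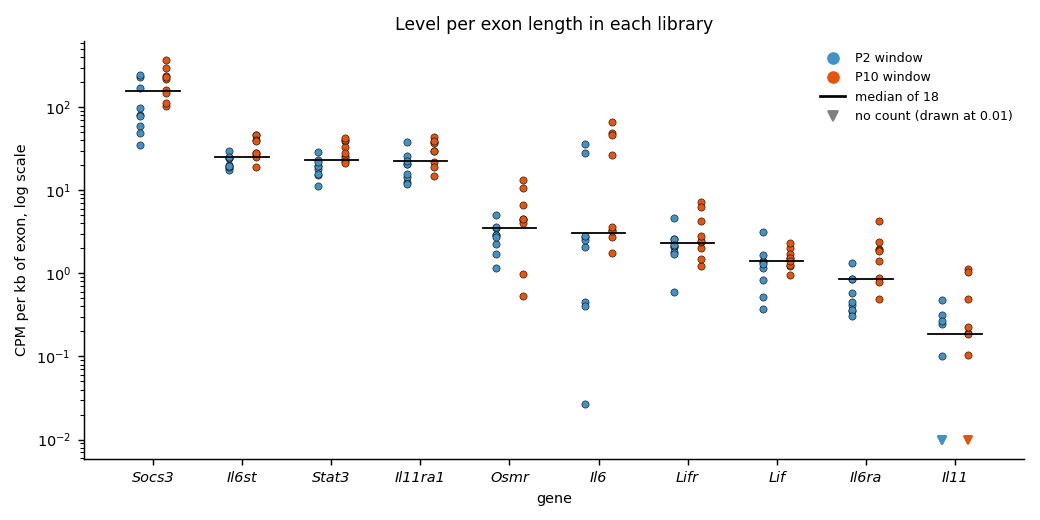
Level of each member in CPM per kb of exon (log axis), with 1 point per library, P2 window on the left and P10 window on the right of each gene, and the median of 18 libraries as a bar. Socs3 sits highest with a median of 156, Il6st, Stat3 and Il11ra1 lie together between 22.4 and 25.2, and Il6 spans the widest range of the genes with counts in every library.

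The windows around the start sites differed between members. RefSeq promoter windows of GRCm38.p6, each with 250 bases before and 50 after a start site, were at hand for all 10 members, 13 windows in all, and were searched on both strands for the STAT binding element TTCNNNGAA, the AP-1 site TGANTCA and the consensus NF-kB site. The Socs3 window was the only one of the 13 with TTCNNNGAA, which 8.30% of 32851 promoters hold. TGANTCA, held by 7.81% of promoters, was found in 4 of the 13 windows, those of Il6, Lif and Osmr and 1 of the 2 of Il11. The Osmr match was TGATTCA and began after the start site, at base 4, whereas the others lay before it. The NF-kB consensus, held by 4.51% of promoters, was found in the Il6 window alone. No 2 matches overlapped. These matches describe letters in the window and were not tested for binding. The sequences of Il6 and Socs3, the ligand and the feedback gene whose levels are followed most closely here, and the stretches around the AP-1 match of the other 2 ligands are shown 5′ to 3′ on the strand of the gene, with the matches in capitals.
Il6: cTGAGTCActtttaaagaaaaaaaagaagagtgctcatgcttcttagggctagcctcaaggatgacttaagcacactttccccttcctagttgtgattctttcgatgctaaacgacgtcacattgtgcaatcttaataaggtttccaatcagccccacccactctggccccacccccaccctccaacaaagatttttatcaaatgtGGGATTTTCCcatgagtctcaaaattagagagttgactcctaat
Socs3: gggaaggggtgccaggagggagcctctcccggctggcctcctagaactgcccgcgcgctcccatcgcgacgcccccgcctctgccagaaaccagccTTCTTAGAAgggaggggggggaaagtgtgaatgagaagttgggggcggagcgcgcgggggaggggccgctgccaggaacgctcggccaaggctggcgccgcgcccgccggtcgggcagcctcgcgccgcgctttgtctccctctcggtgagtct
Lif: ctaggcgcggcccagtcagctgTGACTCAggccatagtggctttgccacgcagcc
Il11: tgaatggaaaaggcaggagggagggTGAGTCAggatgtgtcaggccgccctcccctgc
The Il6 stretch is chr5:30012864-30013113 on the plus strand, bases -250 to -1 from the start site, with the AP-1 match beginning at base -249 and the NF-kB match at base -44. The Socs3 stretch is chr11:117969367-117969616 on the minus strand, bases -250 to -1, with the STAT element beginning at base -154. For Lif the stretch is chr11:4257318-4257372 on the plus strand, with the match beginning at base -228. For Il11 it is chr7:4778207-4778264 on the minus strand, with the match beginning at base -98.

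The ligand genes were first compared library by library, with the values of replicates 1 to 3 given in order. Il6 encodes the cytokine that names the family and lies on chromosome 5 of GRCm38 (30013114 to 30019981, plus strand, GENCODE M21). At P2 it stood at 5.02, 6.74 and 1.10 CPM at baseline, at 67.8, 6.13 and 0.0653 CPM after sham surgery and at 0.997, 6.92 and 87.6 CPM after resection. At P10 it stood at 121, 6.69 and 7.99 CPM at baseline, at 113, 7.89 and 4.29 CPM after sham surgery and at 65.6, 8.83 and 161 CPM after resection. Of the 18 libraries, 6 were at or above 65.6 CPM and the other 12 were at or below 8.83 CPM, with none between, and every group but P2 baseline held at least 1 high library next to a low one. Within a group the highest library exceeded the lowest 6.15-fold at P2 baseline and 18.0-fold to 87.9-fold in the resected groups and in the P10 baseline and P10 sham groups. The lowest P2 sham library held a single Il6 count. The SD of log2(CPM + 0.5) within groups, averaged over the 6 groups, was 2.40 for Il6 against a median of 0.472 over the 16170 genes tested and 3 genes had a larger one. These were Xist, Ddx3y and Eif2s3y, which mark the sex of the pups. The library with the most Il6 in its group was the highest in Xist in 3 of 6 groups and the lowest in 1. For Ddx3y it was the highest in 3 of 6 groups and the lowest in 3. Of the other genes tested, 17.8% were highest in that library in 3 groups.

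Lif, on chromosome 11 (4257557 to 4272514, plus strand), encodes leukemia inhibitory factor, which signals through LIFR and gp130. In the P2 window its libraries stood at 3.59, 1.63 and 2.25 CPM at baseline, at 5.06, 6.13 and 6.00 CPM after sham surgery and at 5.69, 7.18 and 13.8 CPM after resection. In the P10 window they stood at 6.61, 8.78 and 7.50 CPM, at 10.2, 6.60 and 5.38 CPM and at 4.18, 5.53 and 6.14 CPM in the same order of groups. The P2 baseline libraries were the 3 lowest of the 18, and replicates lay within 2.42-fold of each other in every group.

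Il11 was barely expressed. It lies on chromosome 7 (4772373 to 4782859, minus strand) and encodes a cytokine of the family that is known to act on cardiac fibroblasts, and only 179 of its counts were found over the 18 libraries, with none in 6 of them. At P2 the libraries stood at 0, 0.512 and 0 CPM at baseline, at 0, 0 and 0.653 CPM after sham surgery and at 0.997, 0.214 and 0.551 CPM after resection. At P10 they stood at 0, 0.214 and 0.395 CPM, at 2.35, 0.388 and 0 CPM and at 2.14, 1.02 and 0.466 CPM. Only the resected groups had counts in all 3 libraries, and their values overlapped those of the sham groups at both ages.

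Of the 9 other ligand genes of the pathway, 4 passed the filter for testing. Clcf1 (cardiotrophin-like cytokine) stood at 4.36 ± 2.40 CPM (SD, n = 18) and Ctf1 (cardiotrophin 1) at 2.64 ± 2.52 CPM. Osm, the ligand of the oncostatin M receptor, had no counts in 10 of the 18 libraries and reached at most 4.96 CPM. Il27 and Il31 had no counts at all.

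**Figure D2:**
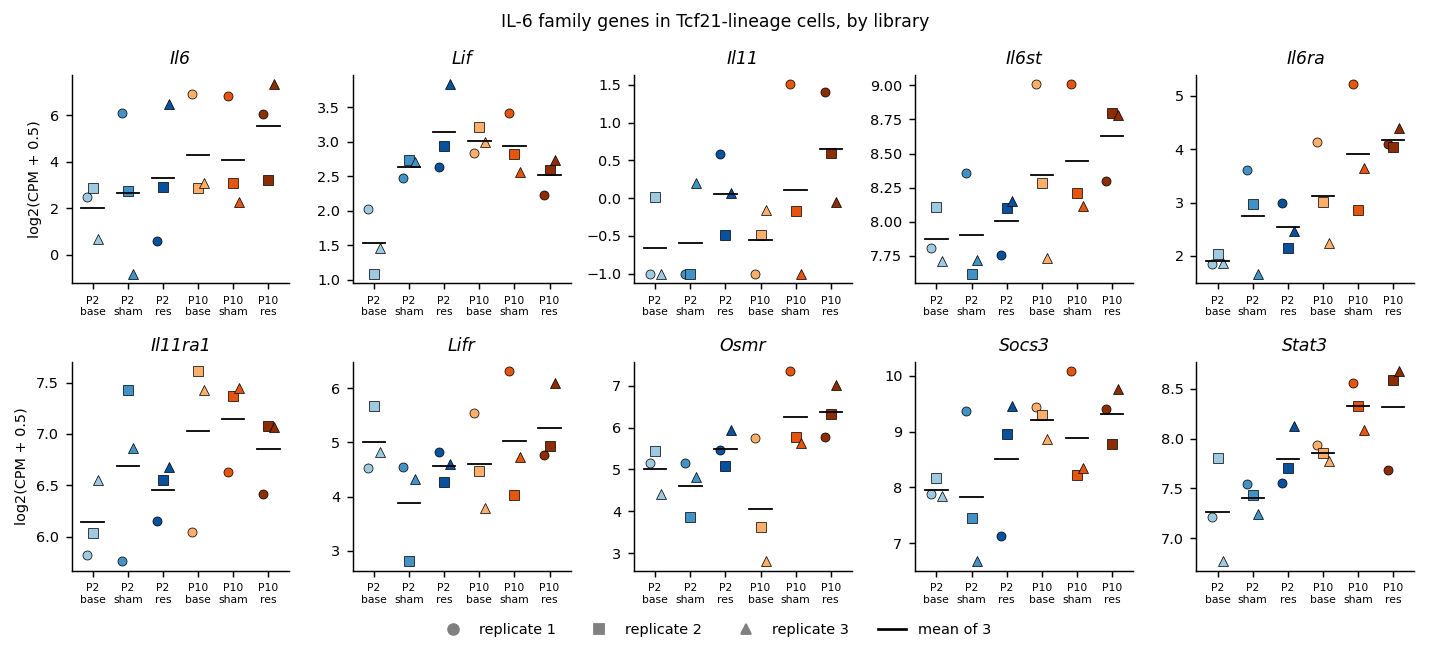
Level of the 10 members as log2(CPM + 0.5) in each library, by group (P2 and P10; base, baseline; res, resected), with a marker for each replicate number and a bar for the mean of 3. Il6 splits into 6 libraries at or above 65.6 CPM and 12 at or below 8.83 CPM, and P10 sham replicate 1 is the highest library for Il11, Il6st, Il6ra, Lifr, Osmr and Socs3.

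Among the receptor chains, Il6st on chromosome 13 (112464070 to 112510086, plus strand) had the most counts, although per length it did not stand apart from Il11ra1. In the P2 window it stood at 223, 275 and 209 CPM at baseline, at 328, 196 and 210 CPM after sham surgery and at 216, 274 and 283 CPM after resection. In the P10 window it stood at 515, 310 and 212 CPM, at 515, 295 and 277 CPM and at 315, 446 and 441 CPM. The resected groups of the 2 ages did not overlap, whereas the baseline and the sham groups did.

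Il6ra, on chromosome 3 (89864059 to 89913196, minus strand), encodes the chain that gives a cell its own binding site for IL-6. Its P2 libraries stood at 3.08, 3.58 and 3.17 CPM at baseline, at 11.7, 7.38 and 2.68 CPM after sham surgery and at 7.51, 3.93 and 5.07 CPM after resection. Its P10 libraries stood at 17.1, 7.54 and 4.24 CPM, at 36.8, 6.73 and 12.1 CPM and at 16.6, 16.0 and 20.5 CPM. The P10 libraries were all above the P2 libraries at baseline and after resection, and overlapped them after sham surgery. An antisense gene, Gm42809, shares 2.80% of the Il6ra exon bases, and since the counting ignored strand its reads cannot be told apart there. It received 21 counts in all.

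Il11ra1, on chromosome 4 (41699989 to 41769474, plus strand), encodes the IL-11 binding chain. At P2 it stood at 56.3, 65.2 and 93.3 CPM at baseline, at 53.8, 172 and 116 CPM after sham surgery and at 70.7, 93.1 and 102 CPM after resection. At P10 it stood at 65.7, 195 and 171 CPM, at 98.7, 164 and 174 CPM and at 84.7, 134 and 133 CPM. Its groups overlapped in every comparison, and replicate 1 was the lowest library of its group in all 6 groups. Its level is uncertain, since Gm13305 shares a stretch of 2578 bases with it at 98.6% identity and Il11ra2 one of 421 bases at 98.1%, and both had no counts.

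Lifr and Osmr encode the chains that pair with gp130 for LIF and for oncostatin M, and lie on chromosome 15 at 7090614 to 7197489 (plus strand) and at 6813577 to 6874969 (minus strand). Lifr stood at 22.6, 50.2 and 28.0 CPM at P2 baseline, at 22.8, 6.50 and 19.5 CPM after sham surgery and at 28.0, 18.7 and 23.8 CPM after resection. It stood at 46.2, 21.8 and 13.3 CPM at P10 baseline, at 79.1, 15.9 and 26.0 CPM after sham surgery and at 26.7, 30.1 and 68.2 CPM after resection. Every Lifr group overlapped the group of the other age and the other surgery. Osmr stood at 34.9, 42.8 and 20.8 CPM at P2 baseline, at 35.2, 14.0 and 27.5 CPM after sham surgery and at 43.6, 33.2 and 60.5 CPM after resection. It stood at 53.0, 11.8 and 6.51 CPM at P10 baseline, at 162, 54.1 and 49.1 CPM after sham surgery and at 54.7, 80.3 and 130 CPM after resection. The P10 sham libraries of Osmr were all above the P2 sham libraries, whereas P10 baseline held the 2 lowest Osmr libraries of the 18.

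Stat3, the transcription factor downstream of gp130, lies on chromosome 11 (100885098 to 100939540, minus strand) and varied least within groups. It stood at 148, 223 and 109 CPM at P2 baseline, at 187, 172 and 151 CPM after sham surgery and at 187, 208 and 279 CPM after resection. It stood at 245, 231 and 218 CPM at P10 baseline, at 375, 321 and 272 CPM after sham surgery and at 205, 385 and 408 CPM after resection. Its mean within-group SD of log2(CPM + 0.5) was 0.306, below that of the other 9 members, and the P10 sham libraries were all above the P2 sham libraries.

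Socs3, the feedback inhibitor on chromosome 11 (117966079 to 117970047, minus strand), had the highest level per length of the members. Its P2 libraries stood at 234, 286 and 230 CPM at baseline, at 663, 175 and 102 CPM after sham surgery and at 140, 496 and 703 CPM after resection. Its P10 libraries stood at 690, 628 and 469 CPM, at 1081, 299 and 325 CPM and at 676, 436 and 868 CPM. The baseline groups of the 2 ages did not overlap, and the libraries after surgery did.

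The library with the most Il6 in its group often held the most of other members too. In each of the 6 groups the library with the most Il6 was also the one with the most Socs3, Osmr and Stat3, a pattern that 1.85% of the other genes tested shared. For Il6st, Il6ra and Lifr it was the same library in 5 of 6 groups, as for 7.22% of the other genes. For Lif it was the same in 3 groups and the lowest library in the other 3, and for Il11ra1 it was the same in 1 group and the lowest library in 3. The other high Il6 library of its group, P10 resected replicate 1 at 65.6 CPM, was instead the lowest of the 3 in Lif, Il6st, Il11ra1, Lifr, Osmr and Stat3. Among the other pathway genes, Jak1, the main kinase of gp130, shared it in all 6 groups, as did Bcl3, Pim1, Mcl1 and Fgl2 of the 20 genes known to respond to Stat3. These 5 were chosen after their values were seen, and the summed level of the 20 was highest in that library in 4 of 6 groups. The sums of the 12 mediators and of the 14 inhibitors were highest there in all 6. Taken singly, 1 of the 12 mediators (Jak1) and 0 of the 14 inhibitors were. The 20 genes of a list of dissociation stress and immediate early genes (such as Fos, Junb, Jun and Dusp1, which respond within minutes to enzymatic digestion) had their highest summed level in that library in 5 of 6 groups and their lowest in the other, P10 baseline, at 14992 CPM. Of these genes, 6 of the 20 (Fosb, Egr2, Zfp36, Nr4a1, Hspa1b and Ppp1r15a) shared the pattern in all 6. The summed level of the 10 fibroblast markers was also highest there in 5 of 6 groups and that of the 8 mural markers in 5 of 6. The summed level of the 12 macrophage markers was the highest there in 0 of 6 groups and the lowest in 5 of 6, and the total count was the highest there in 1 of 6. At P2 sham, the library at 67.8 CPM of Il6 had 5.94 CPM of macrophage markers in all, against 103 and 199 CPM in the other two. The part of digestion and of cell makeup in these differences within groups was not tested.

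**Figure D3:**
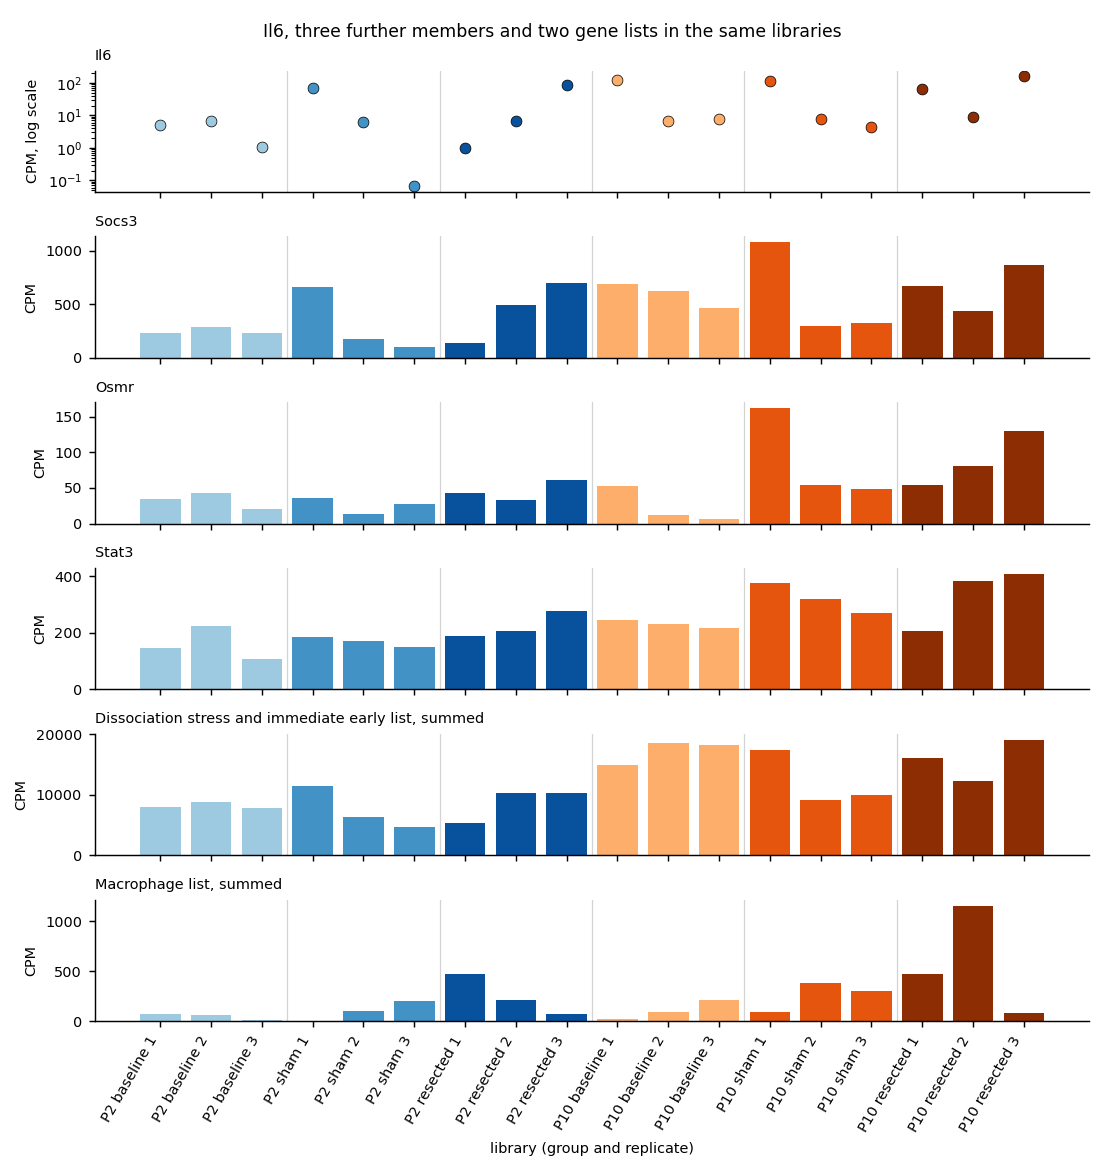
Il6 (log axis), Socs3, Osmr and Stat3 in CPM, and the summed CPM of the stress and of the macrophage list, in the same 18 libraries, colored by group and named by replicate. In each group the tallest Socs3, Osmr and Stat3 bar stands at the library with the most Il6, and the macrophage sum is lowest there in 5 of 6 groups.

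To ask how the family differed between the regenerative and the non-regenerative period, the 9 libraries of the P10 window were compared with the 9 of the P2 window. A receptor chain of IL-6, the shared chain and the transcription factor were higher in the P10 window: Il6ra at 15.3 ± 9.76 against 5.34 ± 2.97 CPM (SD, n = 9 each), Stat3 at 296 ± 78.4 against 185 ± 49.3 CPM and Il6st at 369 ± 111 against 246 ± 45.1 CPM. In the quasi-likelihood test of edgeR, with p adjusted over all genes by the Benjamini-Hochberg method, Il6ra was higher by 1.53 on the log2 scale (SE 0.37, adjusted p = 0.00871), Stat3 by 0.67 (SE 0.16, adjusted p = 0.00878) and Il6st by 0.58 (SE 0.18, adjusted p = 0.0401). As folds these were 2.89 (95% interval 1.70 to 4.93), 1.6 (1.26 to 2.02) and 1.50 (1.15 to 1.95). The 3 called members are 3 of 10, beside 7.11% of all genes tested that were called higher and 13.5% called in either direction. All 3 were at adjusted p above 0.05 once the level of the stress list was a covariate, with log2 differences of 0.88 for Il6ra (adjusted p = 0.189), 0.50 for Stat3 (adjusted p = 0.0860) and 0.26 for Il6st (adjusted p = 0.386) in edgeR's quasi-likelihood test. The call of Il6st was also lost on leaving out any 1 of 12 of the 18 libraries, as listed with the other alternatives, and its adjusted p then ranged up to 0.0822.

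The remaining 7 members did not pass the threshold. The log2 differences were 0.89 for Socs3 (SE 0.36, unadjusted p = 0.0243, adjusted p = 0.114) and 0.59 for Il11ra1 (SE 0.24, unadjusted p = 0.0226, adjusted p = 0.109) by edgeR's quasi-likelihood test. For Il6 the difference was 1.82 with a 95% interval from -0.25 to 3.88. Osmr stood at 0.76 (-0.01 to 1.52), Lifr at 0.61 (-0.12 to 1.34), Lif at 0.41 (-0.17 to 0.98) and Il11 at 1.10 (-1.34 to 3.54). All 10 differences were above 0 with a median of 0.72, beside a median of -0.06 over all genes tested. That of Socs3 depended on the covariate, at -0.12 with the stress list and at 1.42 with the macrophage list (adjusted p = 0.00138, edgeR's quasi-likelihood test). Il11ra1 was the 1 member called higher in the P10 window with the stress list as a covariate.

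Other genes of the pathway were taken from lists of its ligands, receptors, mediators, inhibitors and known target genes. Of the 20 genes known to respond to Stat3, 9 were called higher and 2 lower in the P10 window, beside 7.11% and 6.39% of all genes for this and the lists that follow, and the list's median log2 difference was 0.88. Serpina3n, a secreted protease inhibitor of the acute-phase response, rose by 2.84 on the log2 scale (SE 0.60) and ranged from 5.73 to 2218 CPM among the P10 libraries. Bcl6, a transcriptional repressor, rose by 2.39 (SE 0.69) and Fgl2, a secreted fibrinogen-like protein, by 1.92 (SE 0.42). The 2 called lower were Birc5 (survivin, active in cell division), which fell by 2.68, and the cyclin gene Ccnd1, which fell by 1.08. Among the 9 called higher were Fos and Junb, which are also on the stress list. Of the 12 kinases and other mediators, Stat5a rose by 0.91 (SE 0.25) and Stat5b by 0.66 (SE 0.21), and the other 10 were not called. Of the 14 inhibitors Socs1, a relative of Socs3, was the only one called, higher by 0.96 (SE 0.17), at 53.6 ± 15.1 against 27.1 ± 4.86 CPM. Of 4 further receptor genes, 2 were tested (Cntfr and Il27ra) and 0 were called.

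Markers that moved with the same comparison are given beside these counts. Of the 20 stress and immediate early genes 10 were called higher and 0 lower, with a median of 0.72, the same as that of the members. Their summed level ran from 4601 to 11447 CPM in the P2 window and from 9179 to 19072 CPM in the P10 window. Junb rose by 1.37 (SE 0.22), Dusp1 by 1.25 (SE 0.17), Jun by 1.09 (SE 0.15) and Fos by 1.08 (SE 0.26). Of the 10 fibroblast markers 5 were called higher and of the 8 mural markers 4, and of the 10 cardiomyocyte markers 6 were called lower. Among the 12 macrophage markers 0 were called by edgeR, with 1 at an unadjusted p under 0.05 and a median of 0.97. The endothelial, neutrophil and epicardial lists had 0 called members as well, with 1, 0 and 2 genes at an unadjusted p under 0.05.

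**Figure D4:**
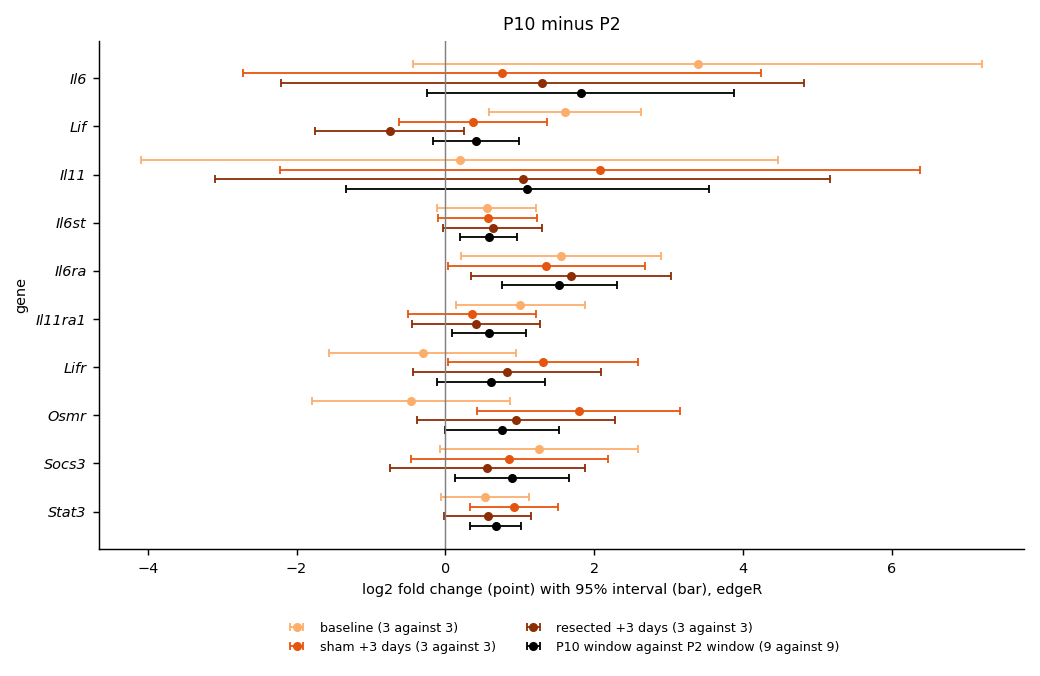
Log2 fold change of each member between P10 and P2 (point) with its 95% interval (bar), at baseline, after sham surgery, after resection and over the whole windows. All 10 points of the window comparison lie above 0, and Il6ra lies between 1.35 and 1.69 in the 3 group comparisons.

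Each age comparison was then made within 1 treatment, 3 libraries against 3. At baseline 0 of 10 members passed adjusted p under 0.05 by edgeR's quasi-likelihood test, beside 4.38% of all genes. Of the members DESeq2 called Lif alone, beside 1671 of 28906 genes. Lif, at 7.63 ± 1.09 against 2.49 ± 1.00 CPM (SD, n = 3 each), differed by 1.61 on the log2 scale (SE 0.49, adjusted p = 0.0696 by edgeR's quasi-likelihood test), the closest to the threshold. At an unadjusted p under 0.05 there were 3 members, Lif, Il6ra and Il11ra1, all higher at P10, beside 9.96% of all genes that were higher at that level. Lif, Il6ra and Socs3 had P10 libraries all above the P2 libraries, beside 10.3% of all genes. Il6 differed by 3.39 with a 95% interval from -0.44 to 7.22, at 45.1 ± 65.5 against 4.29 ± 2.89 CPM, a mean that rests on the P10 library at 121 CPM.

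Of the 20 genes known to respond to Stat3, 1 was called higher at P10 than at P2 at baseline (Junb, by 1.85) and 2 lower (Birc5 and Ccnd1), beside 2.71% and 1.68% of all genes. The stress list had 5 of 20 called higher and 0 lower. Its summed level did not overlap between the groups, with 7892 to 8769 CPM at P2 and 14992 to 18528 CPM at P10.

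After sham surgery 0 of 10 members were called by edgeR, beside 3.18% of all genes. Of the members DESeq2 called Stat3 alone, beside 1281 of 28906 genes. At an unadjusted p under 0.05 by edgeR there were 4 members, all higher at P10, beside 7.54% of all genes. Stat3 was at 323 ± 51.7 against 170 ± 17.9 CPM (log2 difference 0.92, SE 0.28, adjusted p = 0.0887 by edgeR's quasi-likelihood test). Osmr was at 88.4 ± 63.8 against 25.6 ± 10.7 CPM (1.79, SE 0.65, adjusted p = 0.166). Both had P10 sham libraries all above the P2 sham libraries, beside 9.07% of all genes. Il6ra (1.35, SE 0.63) and Lifr (1.31, SE 0.61) were the other 2, and like Osmr both were at their highest in P10 sham replicate 1. Without that library the log2 differences were 0.38 for Il6ra, 0.37 for Lifr and 1.01 for Osmr.

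After resection 0 of 10 members were called by edgeR or by DESeq2, beside 0.860% of all genes by edgeR and 506 of 28906 by DESeq2. By edgeR 1 member was higher at an unadjusted p under 0.05, beside 4.59% of all genes. That was Il6ra, at 17.7 ± 2.44 against 5.50 ± 1.83 CPM (log2 difference 1.69, SE 0.64, adjusted p = 0.361 by edgeR's quasi-likelihood test). Il6ra and Il6st had P10 libraries all above the P2 libraries, beside 10.6% of all genes. Lif pointed the other way, at 5.28 ± 1.00 against 8.88 ± 4.30 CPM (-0.75, 95% interval -1.75 to 0.25). The 3 age comparisons use separate libraries, and Il6ra was at 1.56, 1.35 and 1.69 in them, whereas Lif was at 1.61, 0.37 and -0.75. The first of these values of Il6ra was 0.85 without P10 baseline replicate 1, and with the stress list as a covariate the 3 values were 0.76, 0.88 and 1.01.

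Resection itself was compared with sham surgery at each age. At P2, Il6 stood at 31.8 ± 48.4 CPM after resection and at 24.7 ± 37.5 CPM after sham surgery, and at P10 at 78.4 ± 76.8 against 41.8 ± 61.8 CPM (SD, n = 3 each), so its means differed by less than the spread between replicates. By edgeR's quasi-likelihood test 0 of 10 members were called at either age, averaged over both ages or as a difference between the ages, 0 were at an unadjusted p under 0.05 in any of these 4 comparisons, and DESeq2 called 0 of the 10. Of all genes tested, edgeR called 0 in each of them, and 4.51% at P2, 4.09% at P10, 5.78% in the average and 2.88% in the difference between the ages were at an unadjusted p under 0.05. DESeq2 called 34 genes at P2, 43 at P10, 91 in the average and 26 in the difference between the ages. Stat3 at P2 was the only member whose resected libraries were all above the sham libraries, the lowest at 187.4 against the highest at 186.7 CPM, beside 5.62% of all genes. Of the 20 genes known to respond to Stat3, 0 were called by edgeR in the average over both ages and 6 were at an unadjusted p under 0.05, all higher after resection, beside 4.55% of all genes. The median of that list was 0.40, beside 0.03 over all genes, and the stress list had 0 of 20 at that level. Of the cell type markers 0 were called in the same comparison. At an unadjusted p under 0.05 there were 2 of 12 macrophage markers (median 0.85), 3 of 10 fibroblast markers (median -0.15) and 1 of 7 epicardial markers (median 0.99), all higher after resection, and 0 of 9 endothelial markers (median 0.91). The summed macrophage level ran from 70.3 to 474 CPM after resection and from 5.94 to 199 CPM after sham surgery at P2, and from 77.2 to 1155 CPM and from 95.8 to 384 CPM at P10. Their part in the levels of these genes was not tested.

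The intervals state what size of resection effect these libraries leave possible. Averaged over both ages, the log2 difference was 0.11 for Il6st (95% interval -0.36 to 0.58), 0.22 for Stat3 (-0.19 to 0.64) and 0.07 for Lif (-0.63 to 0.78). It was -0.34 for Il11ra1 (-0.94 to 0.27), -0.23 for Il6ra (-1.15 to 0.69), 0.29 for Lifr (-0.60 to 1.18), 0.42 for Osmr (-0.52 to 1.35) and 0.36 for Socs3 (-0.56 to 1.29). For the other 2 ligands the intervals were far wider, from -1.82 to 3.09 around 0.64 for Il6 and from -2.01 to 3.85 around 0.92 for Il11. The value of Il6 turned to -0.86 without P2 resected replicate 3 and to -0.29 with the stress list as a covariate, and reached 2.32 with the macrophage list as one. The interval of the third ligand, Lif, was narrower than those of Il6ra, Lifr, Osmr and Socs3.

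**Figure D5:**
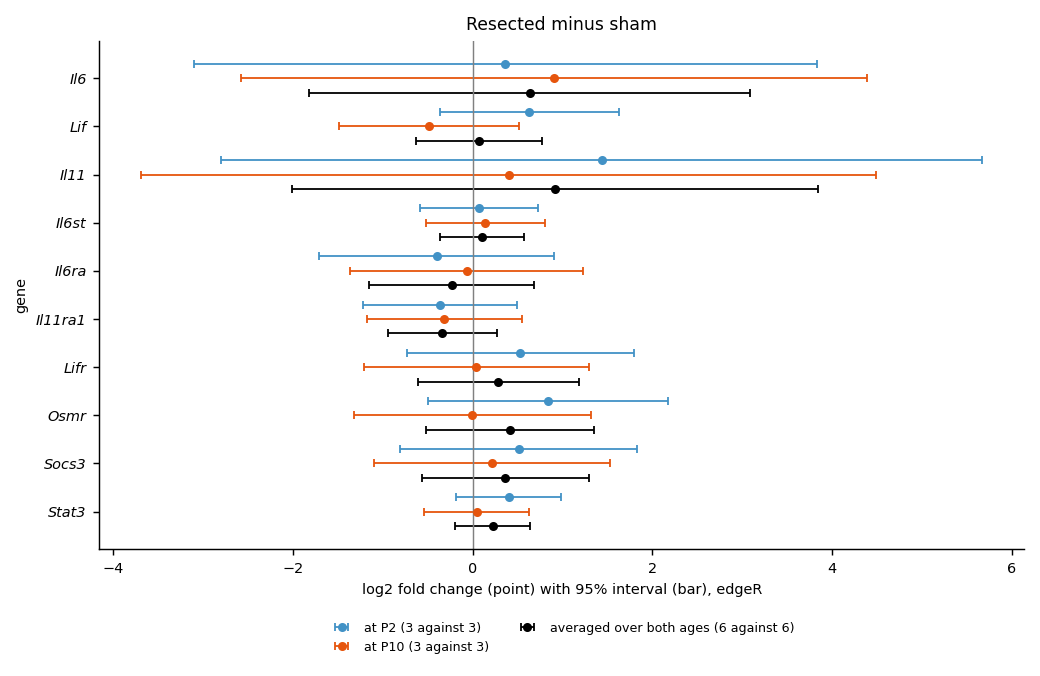
Log2 fold change of each member between resected and sham libraries (point) with its 95% interval (bar), at P2, at P10 and averaged over both ages. Every interval includes 0, and those of Il6 and Il11 are the widest.

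Sham surgery was last compared with baseline, a comparison that also holds 3 days of growth. At P2, 0 of 10 members were called by edgeR's quasi-likelihood test or by DESeq2, beside 0% of all genes by edgeR and 180 of 28906 by DESeq2. Lif, at 5.73 ± 0.585 against 2.49 ± 1.00 CPM, was the 1 member at an unadjusted p under 0.05, beside 4.14% of all genes that were higher at that level (log2 difference 1.20, SE 0.48, adjusted p = 0.604, edgeR's quasi-likelihood test), and its sham libraries were all above the baseline libraries, beside 4.48% of all genes. At P10, 0 of 10 were called by either tool, beside 0.00618% of all genes by edgeR and 164 of 28906 by DESeq2. Osmr was the 1 member at an unadjusted p under 0.05, beside 3.25% of all genes that were higher at that level, at 88.4 ± 63.8 against 23.8 ± 25.5 CPM (1.89, SE 0.65, adjusted p = 0.576, edgeR's quasi-likelihood test), and its groups overlapped. The log2 difference was 1.12 without P10 sham replicate 1 and 3.26 without P10 baseline replicate 1. Stat3 was the member whose P10 sham libraries were all above the baseline libraries, beside 5.34% of all genes, at a log2 difference of 0.48 (95% interval -0.11 to 1.07). These comparisons share the baseline and sham libraries with those above.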

How the data were processed

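Reads of the 18 single-end libraries were trimmed by the authors with FastP 0.20.0, mapped with STAR 2.7.0f to GRCm38.p6 with GENCODE M22 and counted on exons by gene name, without regard to strand, with featureCounts of Subread 1.6.4. The deposited values are whole-number counts that were not normalized. By default that counter drops multi-mapped reads and those on more than 1 gene.

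The members and gene lists were chosen with earlier results of these data known. From the counts, edgeR 4.0.16 in R 4.3.3 kept 16170 genes (filterByExpr, minimum count 10, minimum total 15), scaled libraries by TMM and fitted 1 quasi-likelihood model with a mean per group to all 18 libraries. Comparisons were contrasts of group means, called at a Benjamini-Hochberg adjusted p under 0.05 over all genes tested. DESeq2 1.42.0 was an alternative. CPM use effective library sizes. The model was tested on simulated data. Members are named with the value of every library. Genes of other lists are named where called, at most 4 per list and comparison by size of change, and any other was chosen after its values were seen. Positions come from GENCODE M21 and sequences from RefSeq. At these depths a library without counts could hold up to 3. That floor covers counting error only. Results on some other pathway genes are not reported here. Replicate numbers stand for no stated pairing. In 2 of 7 comparisons of 2 groups (the ages after resection, and P10 sham against P10 baseline) every same-numbered pair of libraries deviated together (correlations from 0.11 to 0.33), a hint from the data alone.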

Additional observations from a re-analysis of the deposited data

How the results depend on the processing

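Calls of Il6ra and Stat3 between the windows held in 23 of 24 alternatives each, all but the stress-list covariate, which was chosen after seeing the data, as was a macrophage-list covariate. The call of Il6st held in 11 of 24. It was lost with the stress covariate (adjusted p = 0.386) and without P2 baseline replicate 1 or 3, P2 sham replicate 2 or 3, any P2 resected replicate, P10 baseline replicate 1 or 2, P10 sham replicate 1 or P10 resected replicate 2 or 3, with adjusted p from 0.0561 to 0.0822 on leaving out 1 library, by edgeR's quasi-likelihood test. Without P2 sham replicate 1, Socs3 was called between the windows (1.28, adjusted p = 0.0101 by edgeR), and without P2 sham replicate 2 or P10 baseline replicate 1, Il11ra1 was (0.75 and 0.71). Between the windows 7 members were called with no filter on low counts, 5 with the macrophage covariate and 1 (Il11ra1) with the stress covariate, against 3. Over all genes these settings called 2759 of 28906, 2035 of 16170 and 2612 of 16170, against 2183 of 16170. At baseline 3 members were called between the ages with no filter, 1 by DESeq2 and 1 with only the compared groups fitted, and leaving out 1 library gave 0 to 1 (Il11ra1 without P10 baseline replicate 1). Over all genes it was 1155 of 28906 with no filter, 1671 of 28906 by DESeq2 and 295 of 13773 with only those groups. Without P10 baseline replicate 1 it was 1207 of 17140. After sham surgery 3 members were called between the ages with no filter, 1 by DESeq2 and 2 with the macrophage covariate. Over all genes these settings called 911 of 28906, 1281 of 28906 and 552 of 16170. After resection 1 (Il6ra) was called between the ages with only those groups fitted, beside 332 of 14188 genes. For sham against baseline 1 member was called at each age with no filter, beside 110 of 28906 genes at P2 and 151 at P10. The cause of these differences was not tested.

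The log2 difference of Socs3 between the windows turned to -0.12 with the stress covariate. The resection averages that turned sign were uncalled throughout. Leaving out 1 library at a time, Il6 ran from -0.86 (without P2 resected replicate 3) to 2.12, Lif from -0.16 to 0.23, Il6ra from -0.43 to 0.26 and Lifr from -0.0032 to 0.76. With the stress covariate Il6 stood at -0.29 and Lif at -0.064, and with the macrophage covariate Il6ra stood at 0.24. Il6 stood at 2.32 with the macrophage covariate and at 1.75 with the replicate block, against 0.64. Of 440 alternatives of 25 member differences, 396 kept direction and side of the threshold, 15 lost a call, 18 gained one and 11 turned sign.

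Same-numbered libraries deviated together only weakly, with correlations from -0.13 to 0.38 (15 of 45 above 0.1) and 10 of 18 libraries closest to their own number, so the numbers were not read as pairs between the windows. With the replicate block 4 members were called between the windows, Il11ra1 (0.57, adjusted p = 0.0145 by edgeR) besides the 3, and 0 in every other comparison, among them the 2 in which each same-numbered pair was above 0.1. Depth limits Il11 most, with 179 counts in all.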

Other observations

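After sham surgery, several genes known to respond to Stat3 were higher at P10 than at P2 while no member of the family was called by edgeR (DESeq2 called Stat3). Of the 20 such genes, 3 were called higher and 1 lower in the quasi-likelihood test of edgeR (Benjamini-Hochberg adjusted p under 0.05 over all genes), beside 3.18% of all genes called. Serpina3n stood at 151 ± 160 CPM in the P10 sham libraries and at 7.89 ± 9.47 CPM in the P2 sham libraries (SD, n = 3 each), a log2 difference of 4.24 (SE 1.10, adjusted p = 0.0438 by edgeR). Cebpd, a transcription factor of the acute-phase response, was higher by 1.67 (SE 0.44) and Il4ra, a chain of the interleukin 4 receptor, by 1.13 (SE 0.30). The gene called lower was Birc5, which fell by 3.75. Of the 20 stress and immediate early genes, Jun was the 1 called in the same comparison, higher by 0.97 (SE 0.26), and the summed level of that list ran from 4601 to 11447 CPM at P2 and from 9179 to 17396 CPM at P10. After resection, where 0 members were called by edgeR or by DESeq2, 2 of the 20 genes known to respond to Stat3 were called higher at P10 and 0 lower by edgeR, beside 0.860% of all genes called. These were Timp1, an inhibitor of matrix metalloproteinases, higher by 2.19 (SE 0.45), and Il4ra, higher by 1.31 (SE 0.30). In the same comparison 2 of the 20 stress genes, Jun and Dusp1, were called higher.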
